A study of Mus musculus with 12 samples.

Results

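The 9 genes described here encode ligands, receptors and intracellular regulators of transforming growth factor beta (TGF-beta) signalling. They are the ligand genes Tgfb1, Tgfb2 and Tgfb3, the receptor genes Tgfbr1 and Tgfbr2, the SMAD genes Smad2, Smad3 and Smad7, and the co-repressor gene Tgif1. They were taken by gene symbol from the 52636 genes of the deposited table, and each symbol was found there. Their levels were read in all 12 libraries, by genotype and fat fraction.

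TGF-beta is secreted in a latent form, held in the extracellular matrix or on cell surfaces, and released before it binds a complex of type II and type I receptors. The receptors phosphorylate SMAD2 and SMAD3, which enter the nucleus with SMAD4, while SMAD7 is an induced inhibitor that acts on the receptors and TGIF1 is a nuclear co-repressor of SMAD complexes. In liver, the pathway is best known for activating stellate cells to make matrix and for restraining hepatocyte growth.

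Transcript levels were measured by RNA sequencing of polyA RNA from hepatocytes of steatotic mouse livers, which had been separated by lipid content. The 6 mice were 3 wild type (WT) and 3 labelled as PTPRK knockout (KO), and PTPRK is a receptor-type protein tyrosine phosphatase encoded by Ptprk. The labels enter low fat and high fat as a treatment. They are read here as 2 fractions of the hepatocytes of each mouse, because the extraction protocol describes the separation and each mouse name stands on 1 library of either kind. That reading gives 4 groups of 3 libraries, 1 for each genotype and fraction. Mice are numbered here by the replicate number of their libraries, which differs from the number in most of the labelled mouse names. Percoll gradient and differential centrifugation were used to leave dead hepatocytes and other liver cell types behind. Whether the knockout is limited to certain cells, and the age, sex and diet of the mice, are not given in the sources used here. All 4 groups came from steatotic livers, so no lean liver enters any comparison.

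Values are reads per 20 M (M, mega), as deposited, and estimated depth was 15.1 to 25.02 M reads per library. At these depths, 3 reads correspond to 2.4 to 3.98 reads per 20 M, a floor that covers counting error only. Ptprk lay between 2174 and 2883 in the WT libraries and between 1117 and 1364 in the KO libraries, with no overlap. The summed level of 10 hepatocyte markers was 791491 to 963716, and none of them was at 0 in any library. Markers of other liver cells were present as well. Summed stellate, sinusoidal endothelial and Kupffer cell markers were higher in every high-fat than in any low-fat library. Biliary sums were lower (375 to 509 in low-fat and 272 to 365 in high-fat libraries), and lymphocyte sums overlapped (4 to 134 and 3 to 69). The high-fat libraries of WT mouse 1 and KO mouse 1 stood apart, with Kupffer cell marker sums of 11664 and 10117 against 2140 to 2402 in the other high-fat libraries. They also had the highest sums of nuclear-retained RNAs, 154340 and 152806 against 32026 to 104688 in the other high-fat libraries. In low-fat libraries those sums were 27592 to 124202. In bulk samples, fewer cells of a type and less RNA per cell cannot be told apart.

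Of the 9 genes, 7 reached 10 reads per 20 M in 3 or more libraries and were tested with limma among 16563 genes. Tgfb2 and Tgfb3 did not pass and were not tested. In high-fat against low-fat libraries, averaged over genotypes, Tgfb1 was the 1 gene of the 7 called at an adjusted p under 0.05, and it was higher. Of all genes tested, 5.77% were called in that comparison, and 5.05% were called as higher. In KO against WT, 0 of the 7 were called in either fraction or over mouse means, where 0.00604% of all genes, Ptprk alone, were called each time. The median log2 fold change of the 7 genes was -0.07 between fractions (-0.02 over all genes) and 0.09 between genotypes (-0.01 over all genes).

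The sequences just upstream of a Tgfb1 and a Tgif1 transcript are shown for orientation only. Of those tested among the 9 genes, Tgfb1 differed most between fractions and Tgif1 most between genotypes, although Tgif1 was not called in any comparison. They are RefSeq promoter windows on GRCm38.p6, each the 250 bases before an annotated transcript start, 5' to 3' on the gene's strand. Windows were found for 6 of the 9 genes, 11 windows in all, and not for Tgfb3, Smad2 or Smad7. The Tgfb1 window is chr7:25686752-25687001 on the plus strand, and the Tgif1 window is chr17:70851735-70851984 on the minus strand. Tgfb1 has 1 window and Tgif1 has 5, of which the one shown overlaps no annotated Tgif1 exon. Capitals mark GGGCGG or its complement CCGCCC (the core of the motif bound by SP1, a factor that cooperates with SMADs) and CAGACA or its complement TGTCTG (which contains the SMAD binding element).
Tgfb1: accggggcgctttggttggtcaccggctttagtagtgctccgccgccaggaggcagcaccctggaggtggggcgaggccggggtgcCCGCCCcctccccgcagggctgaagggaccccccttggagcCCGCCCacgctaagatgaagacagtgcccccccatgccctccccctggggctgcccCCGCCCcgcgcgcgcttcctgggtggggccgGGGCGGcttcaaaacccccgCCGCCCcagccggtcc
Tgif1: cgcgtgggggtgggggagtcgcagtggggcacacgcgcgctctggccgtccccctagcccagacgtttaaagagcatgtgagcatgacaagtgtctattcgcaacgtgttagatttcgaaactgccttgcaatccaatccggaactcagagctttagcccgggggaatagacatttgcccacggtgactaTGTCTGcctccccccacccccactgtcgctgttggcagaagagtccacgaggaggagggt
The Tgfb1 window held 5 matches to GGGCGG on either strand and 0 to CAGACA, and 75.2% of its bases were G or C. The Tgif1 window shown held 1 match to CAGACA, 60 bases before the transcript start (position -60), and 0 to GGGCGG, with 58.8% G or C. The 5 Tgif1 windows differed among themselves, with 0 to 5 matches to GGGCGG, 0 or 1 to CAGACA and 38.0% to 69.6% G or C, so these values depend on the transcript start taken. Of 32851 mouse promoter windows of this length, 32.7% held GGGCGG and 17.1% held CAGACA on either strand. A match describes letters in the window, not a site in use.

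Levels of different genes were compared per kilobase of annotated exon. The order of the means over 12 libraries was Tgfbr1 at 136 ± 11 reads per 20 M per kilobase, Smad7 at 132 ± 79.7, Smad3 at 120 ± 21.6 and Tgfbr2 at 84.8 ± 16.5 (SD). It continued with Tgif1 at 59.8 ± 16.6, Smad2 at 44.9 ± 5.09, Tgfb1 at 19.8 ± 16.1, Tgfb3 at 1.43 ± 1.39 and Tgfb2 at 0.446 ± 0.308. The first 3 genes were not separated: Tgfbr1 was above Smad7 in 8 of 12 libraries, and Smad7 above Smad3 in 6. Smad3 was above Tgfbr2, Tgfbr2 above Tgif1, and Tgif1 above Smad2 in 11 of 12 libraries each, and Smad2 was above Tgfb1 in 10. Per kilobase of coding sequence, Smad3 (506 ± 91.1) came before Smad7 (463 ± 278), and the rest of the order of means was the same, but Tgfbr2 was above Tgif1 in 7 of 12 libraries, so that these neighbours were not separated on that scale. The receptor transcript Tgfbr1 was 6.85 times its ligand Tgfb1 per kilobase of exon, and Smad3 2.67 times Smad2, each higher in 12 of 12 libraries.

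**Figure D1:**
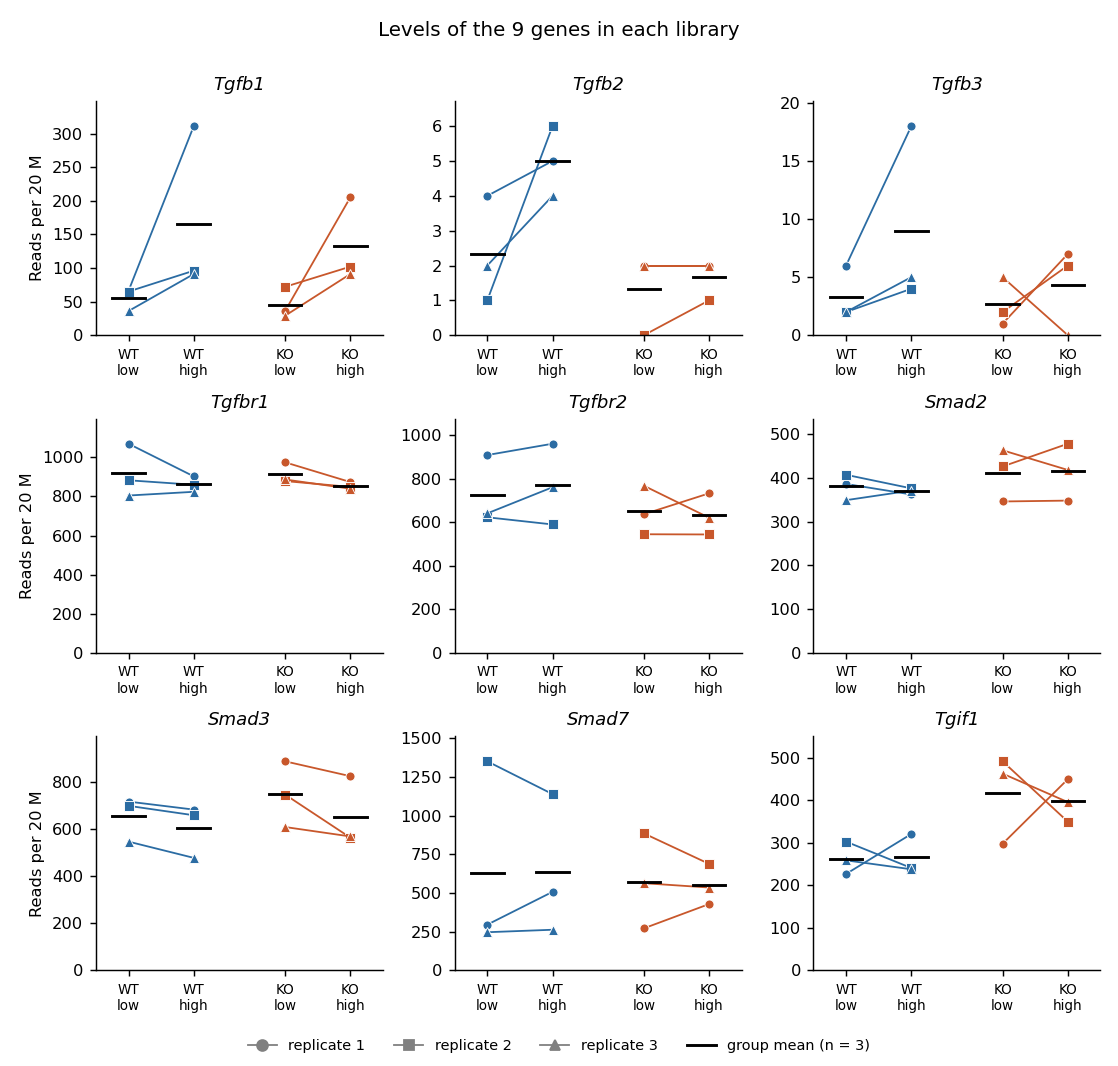
Deposited level (reads per 20 M, linear axes from 0) of each of the 9 genes in each library, with lines joining the low-fat and high-fat library of a mouse, blue for WT and orange for KO, symbols for replicate numbers and black bars for group means. Tgfb1 rises along all 6 lines, Smad7 is highest in WT replicate 2 in both fractions, and Tgif1 is mostly higher in KO, with 1 KO low-fat library (298) just under the highest WT low-fat library (303).

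The ligand Tgfb1 (ENSMUSG00000002603, GRCm38 chromosome 7, 25687002 to 25705077, plus strand, protein coding) encodes TGF-beta 1. In WT its levels in replicates 1, 2 and 3 were 66, 65 and 36 reads per 20 M in the low-fat and 311, 96 and 91 in the high-fat libraries. In KO they were 36, 72 and 29 in the low-fat and 205, 102 and 91 in the high-fat libraries. Every high-fat library lay above every low-fat library, with the highest levels in the high-fat libraries of mouse 1 of each genotype. Group means were 55.7 ± 17.0 and 166 ± 126 in WT, and 45.7 ± 23.1 and 133 ± 62.9 in KO (low-fat and high-fat, SD, n = 3 each). The fractions did not overlap in either genotype, which held for 13.9% of all genes tested in WT and 11.2% in KO.

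Averaged over genotypes, Tgfb1 was 2.59-fold higher in high-fat libraries, a log2 fold change of 1.37 (SE 0.336, 95% interval 0.638 to 2.11, limma adjusted p = 0.0348, and 0.0162 with the mouse as a block, a fit that called 6.76% of all genes as higher and 4.23% as lower). The high-fat library was the higher of the pair in 6 of 6 mice, by 2.11, 0.59 and 1.19 on the log2 scale in WT mice 1 to 3, and by 2.28, 0.478 and 1.6 in KO mice 1 to 3. A rise in all 6 mice was found for 9.96% of all genes. Within a genotype the log2 fold change was 1.30 in WT (limma adjusted p = 0.313) and 1.45 in KO (limma adjusted p = 0.234), and neither was called, against 0% and 0.839% of all genes. The rise differed between genotypes by 0.159 (interaction, 95% interval -1.32 to 1.63, limma adjusted p = 1), an interval that leaves differences in either direction. Without both replicate 1 high-fat libraries the log2 fold change was 0.939 and the call was lost (limma adjusted p = 0.088). It was also lost without WT low-fat replicate 1, 2 or 3, KO low-fat replicate 1 or 3, or KO high-fat replicate 1 or 2 (limma adjusted p 0.0564 to 0.0898).

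Markers of Kupffer, sinusoidal endothelial and stellate cells rose along with Tgfb1, and those of biliary cells and lymphocytes did not. The summed level of 10 Kupffer cell markers was 483 to 1371 in low-fat and 2140 to 11664 in high-fat libraries, and 8 of the 10 were called as higher. For 10 sinusoidal endothelial markers the sums were 1093 to 2655 and 4404 to 14127, with 10 called, and for 12 stellate cell markers 247 to 1125 and 3411 to 6315, with 12 called. Among 10 hepatocyte markers, 1 was called as higher and 0 as lower (5.05% and 0.725% of all genes), and 1 each with the mouse as a block. Their sum can hide single markers: Cyp2e1 was 25608 to 47248 in low-fat and 55304 to 70040 in high-fat libraries. From low-fat to high-fat, Tgfb1 rose 4.71-fold in WT mouse 1 and 5.69-fold in KO mouse 1, where the Kupffer sum rose 11.1-fold and 20.9-fold. It rose least in WT mouse 2 (1.48-fold) and KO mouse 2 (1.42-fold), where the Kupffer sum rose 1.75-fold and 3.08-fold. In WT mouse 3 and KO mouse 3 Tgfb1 rose 2.53-fold and 3.14-fold, and the Kupffer sum 3.46-fold and 3.09-fold. In KO mice 2 and 3 the Kupffer sums rose by similar amounts and Tgfb1 by different amounts, each value from a single pair of libraries. Over the 12 libraries the log2 level of Tgfb1 had a Pearson's r of 0.953 with the Kupffer sum, 0.909 with the endothelial sum, 0.782 with the stellate sum, 0.399 with the lymphocyte sum, -0.403 with the hepatocyte sum and -0.52 with the biliary sum. Its r was 0.631 with the sum of nuclear-retained RNAs, 0.528 with neutrophil and platelet markers and 0.365 with immediate early genes. These are descriptions over libraries that share mice and the same separation. The part of these cells, or of nuclear-retained RNA, in the rise of Tgfb1 was not tested.

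**Figure D2:**
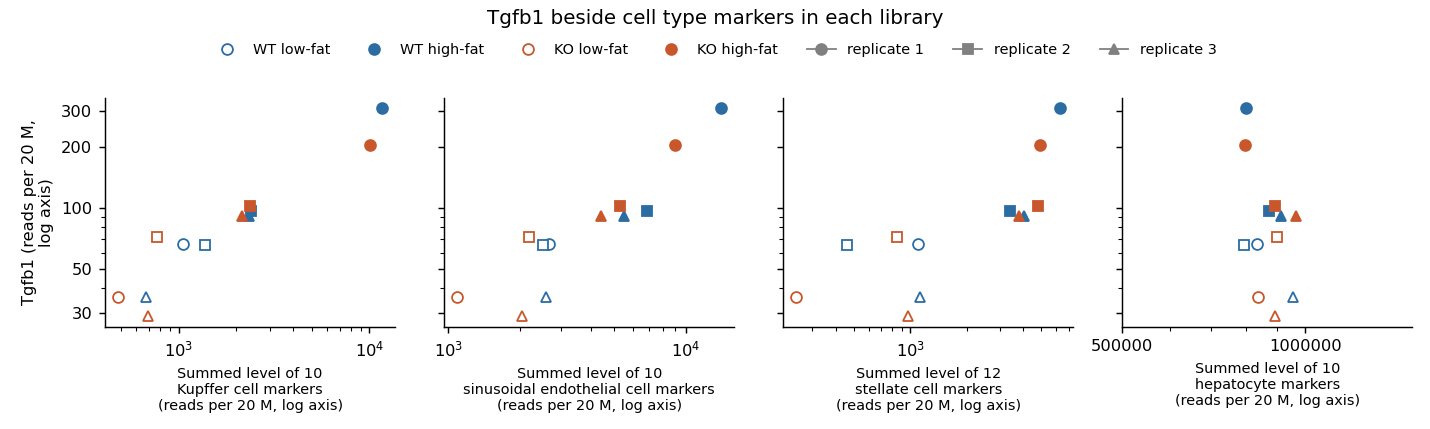
Tgfb1 (reads per 20 M, log axis) against the summed level of markers of 4 cell types (log axes) in the 12 libraries, with open symbols for low-fat, filled for high-fat, blue for WT, orange for KO and shapes for replicate numbers. The high-fat libraries of replicate 1 lie at the upper right for Kupffer and endothelial markers, while hepatocyte sums stay between 791491 and 963716.

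Among genes averaging 100 reads per 20 M or more, those whose log2 levels over the 12 libraries were most like Tgfb1 were Msn (moesin, a membrane-cytoskeleton linker, r = 0.977) and Slc15a3 (a peptide and histidine transporter of endolysosomes, r = 0.975). Msn ranged from 71 to 168 in low-fat and from 190 to 838 in high-fat libraries. Slc15a3 ranged from 15 to 56 and from 76 to 447.

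The other ligands were at or near the floor. Tgfb2 was 4, 1 and 2 in WT low-fat, 5, 6 and 4 in WT high-fat, 2, 0 and 2 in KO low-fat, and 2, 1 and 2 in KO high-fat libraries. It was at or under the level of 3 reads in 8 of 12 libraries. Tgfb3 was 6, 2 and 2 in WT low-fat, 18, 4 and 5 in WT high-fat, 1, 2 and 5 in KO low-fat, and 7, 6 and 0 in KO high-fat libraries. It was at or under 3 reads in 5 of 12 libraries and reached 10 in 1, the high-fat library of WT mouse 1. Values were rounded up by the authors, which can add up to 1 to levels this low, and no fold change is given. Tgfb3 overlaps 3 annotated genes on the opposite strand, among them Ttll5, and Tgfb2 overlaps 2, and whether counting used strand is not given in the sources used here.

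Among the receptors, Tgfbr1 varied least between mice of the 7 genes tested, and Tgfbr2 varied more. Tgfbr1, the type I receptor kinase (chromosome 4), was 1070, 883 and 805 in WT low-fat, 903, 860 and 824 in WT high-fat, 975, 879 and 887 in KO low-fat, and 874, 849 and 840 in KO high-fat libraries. The KO fractions did not overlap, with the high-fat libraries lower, while the WT fractions overlapped. Fractions without overlap, in either direction, were found for 11.2% of all genes tested in KO. The log2 fold change of Tgfbr1 between fractions was -0.137 in WT and -0.15 in KO (interaction -0.0137, 95% interval -0.335 to 0.308). Averaged over genotypes the log2 fold change between fractions was -0.14 (SE 0.0733, 95% interval -0.304 to 0.0172, limma adjusted p = 0.337, and 0.179 with the mouse as a block). KO differed from WT by 0.00 on the log2 scale over mouse means (-0.000518, SE 0.086, 95% interval -0.202 to 0.201, limma adjusted p = 0.999). The standard deviation of Tgfbr1 between mice of a genotype was 0.089 on the log2 scale, at the 14.7th percentile of all genes tested.

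Tgfbr2, the type II receptor that binds the ligand first (chromosome 9), was 909, 623 and 641 in WT low-fat and 961, 590 and 761 in WT high-fat libraries. In KO it was 637, 545 and 768 in low-fat and 733, 544 and 621 in high-fat libraries. The groups overlapped in every comparison, and mouse 1 of WT was the highest in both fractions, with a standard deviation between mice of 0.272 on the log2 scale. The log2 fold change between fractions was -0.03 (SE 0.143, 95% interval -0.345 to 0.283, limma adjusted p = 0.94), a value that turns positive, 0.0237, with the deposited scaling. Between genotypes it was -0.20 (SE 0.178, 95% interval -0.617 to 0.215, limma adjusted p = 0.999).

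The receptor-regulated SMADs carry the signal to the nucleus. Smad2 (chromosome 18) was 386, 407 and 349 in WT low-fat, 362, 376 and 371 in WT high-fat, 346, 426 and 463 in KO low-fat, and 348, 478 and 418 in KO high-fat libraries. The groups overlapped throughout, with a log2 fold change of -0.07 between fractions (SE 0.099, limma adjusted p = 0.775) and 0.14 between genotypes over mouse means (0.135, SE 0.124, limma adjusted p = 0.999). Smad3 (chromosome 9) was 717, 699 and 547 in WT low-fat, 683, 659 and 478 in WT high-fat, 888, 747 and 609 in KO low-fat, and 825, 564 and 569 in KO high-fat libraries. Although the groups overlapped, the high-fat library was the lower of the pair in 6 of 6 mice, a pattern found for 11.6% of all genes. The log2 fold change of Smad3 between fractions was -0.21 (SE 0.128, 95% interval -0.494 to 0.067, limma adjusted p = 0.421), and with the mouse as a block the SE was 0.0606 and the adjusted p 0.0603, so it was not called in either fit. Between genotypes it was 0.15 (SE 0.158, 95% interval -0.221 to 0.518, limma adjusted p = 0.999).

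**Figure D3:**
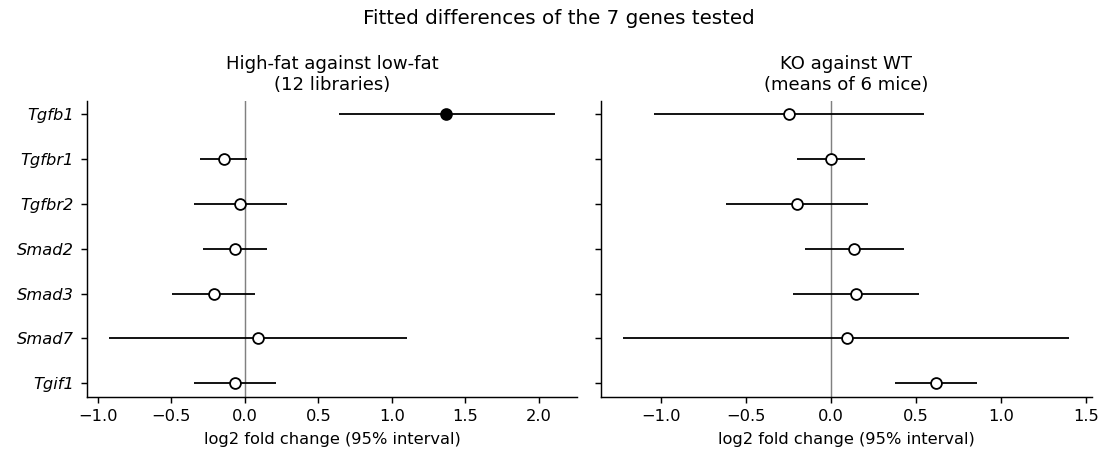
Log2 fold change with its 95% interval (limma) for the 7 genes tested, in high-fat against low-fat libraries averaged over genotypes (left) and in KO against WT over mouse means (right), with a filled point where the adjusted p is under 0.05. Tgfb1 (1.37) is the filled point on the left, and Tgif1 (0.617) lies farthest from 0 on the right with an open point.

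The inhibitory SMAD gene Smad7 (chromosome 18), itself a transcript known to be induced by TGF-beta and bone morphogenetic protein (BMP) signals, varied with the mouse. Its levels in WT replicates 1, 2 and 3 were 296, 1352 and 247 in low-fat and 508, 1140 and 263 in high-fat libraries. In KO they were 272, 886 and 564 in low-fat and 429, 689 and 536 in high-fat libraries. WT mouse 2 and KO mouse 2 were the highest of their genotype in both fractions, and WT and KO overlapped. The highest mouse was 4.63-fold above the lowest, and the standard deviation between mice of a genotype was 0.918 on the log2 scale, at the 98.2nd percentile of all genes tested (median 0.185). Neither the fraction (log2 fold change 0.09, SE 0.461, 95% interval -0.925 to 1.10, limma adjusted p = 0.949) nor the genotype (0.09, SE 0.558, 95% interval -1.22 to 1.40, limma adjusted p = 0.999) passed the test.

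The genes most like Smad7 over the 12 libraries were Id3 (an inhibitor of DNA binding and a known target of BMP signals, r = 0.966) and Kdm6b (a histone demethylase, r = 0.956). Id3 was 1491 and 1247 in the low-fat and high-fat libraries of WT mouse 2, and 141 and 210 in those of WT mouse 3. Of 109 other tested genes of the TGF-beta and BMP lists described below, 4 had an r of at least 0.8 with Smad7, or 3.67%, against 0.628% of all genes tested. They were Id3, Id1, Bhlhe40 and Id2, named after their values were seen. Id1, another known BMP target, was 166 and 119 in WT mouse 2 and 12 to 50 in the 4 libraries of the other WT mice. The same 2 libraries of WT mouse 2 held lymphocyte marker sums of 79 and 19 (3 to 134 over all libraries) and sums of nuclear-retained RNAs of 103787 and 104688 (27592 to 154340), and the part of either in these levels was not tested.

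**Figure D4:**
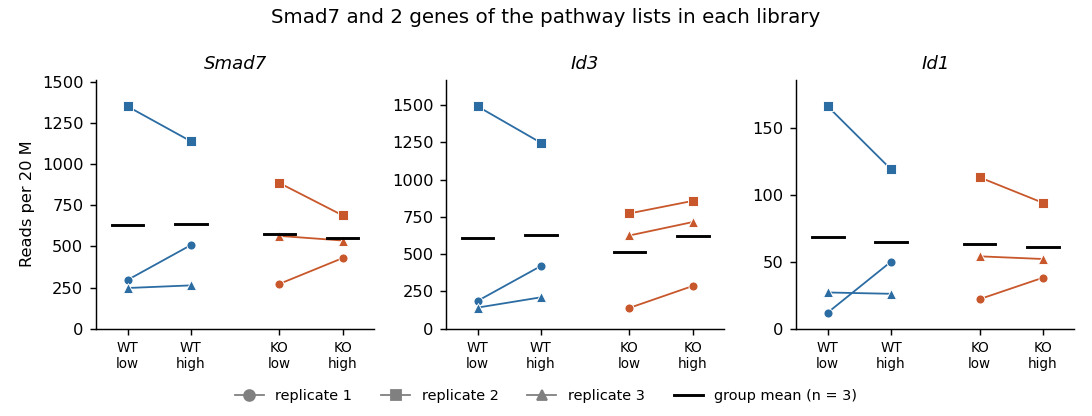
Deposited level (reads per 20 M, linear axes from 0) of Smad7, Id3 and Id1 in each library, with lines joining the fractions of a mouse, blue for WT, orange for KO, symbols for replicate numbers and black bars for group means. Replicate 2 is the highest of each genotype in both fractions in all 3 panels.

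Tgif1 (ENSMUSG00000047407, GRCm38 chromosome 17, 70844205 to 70853546, minus strand, protein coding) encodes a homeodomain protein that recruits co-repressors to SMAD complexes. In WT its levels in replicates 1, 2 and 3 were 227, 303 and 259 in low-fat and 321, 241 and 238 in high-fat libraries. In KO they were 298, 492 and 463 in low-fat and 450, 350 and 396 in high-fat libraries. All KO high-fat libraries lay above all WT high-fat libraries, while 1 KO low-fat library (298) lay under 1 WT low-fat library (303). Group means were 263 ± 38.2 (WT) and 418 ± 105 (KO) in the low-fat fraction, and 267 ± 47.1 (WT) and 399 ± 50.1 (KO) in the high-fat fraction (SD, n = 3 each). The separation in the high-fat libraries was shared by 4.51% of all genes tested, and none of the 7 genes separated the genotypes in the low-fat libraries, where 4.97% of all genes did.

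Over mouse means, Tgif1 was 1.53-fold higher in KO, a log2 fold change of 0.617 (SE 0.103, 95% interval 0.375 to 0.859). It was not called: the limma adjusted p was 0.999 (0.952 with the replicate number as a block), from an unadjusted limma p of 0.000459 that was the 4th smallest of 16563. An unadjusted p under 0.05 was found for 2.19% of all genes. The 3 KO means, from 8.51 to 8.80 on the log2 scale, lay above the 3 WT means, from 8.01 to 8.07, a separation shared by 6.38% of all genes. The log2 fold change was 0.646 in low-fat libraries (SE 0.181, limma adjusted p = 1) and 0.588 in high-fat libraries (SE 0.181, limma adjusted p = 1). It stayed positive over the 15 alternatives for mouse means, from 0.55 to 0.707, with limma adjusted p from 0.915 to 1.

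Between fractions, Tgif1 moved in different directions in different mice. It was higher in the high-fat library of mouse 1 of each genotype, by 0.404 in WT and 0.422 in KO on the log2 scale. It was lower in the other 4 mice, by -0.286 and -0.231 in WT and -0.502 and -0.207 in KO. The mean over genotypes was -0.07 (SE 0.128, limma adjusted p = 0.841). The genes most like Tgif1 over the 12 libraries were Cbx7 (a Polycomb protein, r = 0.907) and Spred2 (an inhibitor of the Ras and MAP kinase cascade, r = 0.867). Cbx7 was 158 to 216 in WT and 186 to 285 in KO libraries. The 9 marker sums, immediate early genes included, had an r with Tgif1 between -0.133 and 0.346 over the 12 libraries, which share mice.

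For the remaining genes, the pair most like each were H2afy (r = 0.972) and Tpst2 (0.923) for Tgfbr1, Shtn1 (0.912) and Ranbp9 (0.911) for Tgfbr2, Gpd1l (0.974) and Gtf2i (0.961) for Smad2, and Zfp219 and Ulk1 (0.945 each) for Smad3. Among the 7 genes themselves, the strongest correlations over the 12 libraries were -0.572 for Tgfbr2 with Smad7 and 0.569 for Tgfbr1 with Smad3. Tgfb1 had an r of -0.429 with Tgfbr1 and 0.145 with Tgfbr2.

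The wider pathway was examined with 6 gene lists, in the same high-fat against low-fat comparison averaged over genotypes (median of all genes -0.02, 5.05% called as higher and 0.725% as lower). With the mouse as a block, 6.76% of all genes were called as higher and 4.23% as lower. Without both replicate 1 high-fat libraries, 415 of 16563 genes were called as higher and 47 as lower. Of the 6 lists, 5 held genes called as higher, and none held a gene called as lower unless the mouse was a block. Stellate, endothelial and Kupffer cell markers rose in the same comparison, with the sums given above for Tgfb1, and their part in the list results was not tested. Col1a1 and Col3a1 are themselves on the stellate cell list.

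Ligand storage and activation genes keep TGF-beta latent and release it. Of 15 tested, 6 were called as higher (median log2 fold change 1.09, and 0.694 without both replicate 1 high-fat libraries, where 6 were called too). With the mouse as a block, 6 were called as higher and 1 as lower. Ltbp4, a latent TGF-beta binding protein of the matrix, rose from between 146 and 508 in low-fat to between 697 and 1957 in high-fat libraries (log2 fold change 1.69, SE 0.256, limma adjusted p = 0.00391). Emilin1, a matrix glycoprotein that restrains TGF-beta processing, rose from between 34 and 100 to between 176 and 453 (1.87, SE 0.254, limma adjusted p = 0.00298). Lrrc32, which tethers latent TGF-beta to cell surfaces, rose from between 25 and 62 to between 93 and 354 (1.67, SE 0.269, limma adjusted p = 0.00519). Fbn1 (fibrillin 1, log2 fold change 1.83), Itgb3 (an integrin beta subunit, 1.80) and Ltbp1 (2.19) rose too, Ltbp1 from between 0 and 7 reads per 20 M, near the floor, to between 20 and 47 (log2 fold change 1.28 with a pseudocount of 10). Each of the 6 rose in 6 of 6 mice, as did 9.96% of all genes, and the 6 were named because they were called in this comparison.

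Among 15 co-receptors and receptor-level regulators, 3 were called as higher (median -0.03). Tgfbr3, betaglycan, which presents ligand to the type II receptor, was 56 to 120 in low-fat and 245 to 432 in high-fat libraries (log2 fold change 1.57, SE 0.209, limma adjusted p = 0.00293). Eng, the endothelial co-receptor endoglin, was 261 to 488 and 677 to 2239 (1.41, SE 0.227, limma adjusted p = 0.00509). Dab2, an endocytic adaptor for the receptors, was 27 to 73 and 86 to 460 (1.68, SE 0.354, limma adjusted p = 0.0172). Each of the 3, named because it was called, was higher with high fat in 6 of 6 mice, as were 9.96% of all genes.

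Of the 5 other SMAD genes, 0 were called (median -0.01). Smad6, the inhibitory SMAD of the BMP branch, was 63 to 157 in low-fat and 131 to 282 in high-fat libraries. Smad6 was higher in 6 of 6 mice, as were 9.96% of all genes (log2 fold change 0.814, SE 0.241, limma adjusted p = 0.0792). With the mouse as a block it was called (adjusted p = 0.0259), as it was without WT high-fat replicate 3 (limma adjusted p = 0.0228). Of 27 SMAD regulators in nucleus and cytoplasm, 1 was called (median -0.05). That gene was Zeb2, a SMAD-binding repressor, at 21 to 110 and 184 to 486 (2.01, SE 0.381, limma adjusted p = 0.011, and 0.0541 without both replicate 1 high-fat libraries).

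Of 22 tested transcripts known to respond to TGF-beta, 9 were called as higher (median 0.908), and 8 without both replicate 1 high-fat libraries. Col3a1, a fibrillar collagen, rose from between 14 and 56 in low-fat to between 175 and 389 in high-fat libraries (log2 fold change 2.92, SE 0.367, limma adjusted p = 0.00285). Bgn, the proteoglycan biglycan, rose from between 49 and 168 to between 372 and 937 (2.37, SE 0.306, limma adjusted p = 0.00285). Postn (periostin, 2.70), Col1a1 (2.66), Col1a2 (2.49) and Igfbp3 (an insulin-like growth factor binding protein, 2.43) were called as well. Postn (1 to 22) and Col1a1 (1 to 23) were low in low-fat libraries, and with a pseudocount of 10 their log2 fold changes were 2.05 and 1.88. With the mouse as a block, 12 genes of this list were called as higher and 1 as lower. Of 26 tested genes of the activin and BMP branch, 8 were called as higher (median 0.181, and 0.38 without both replicate 1 high-fat libraries, where 6 were called). With the mouse as a block, 9 genes of this branch were called as higher and 4 as lower. Gdf2, the BMP ligand also named BMP9, rose from between 5 and 40 to between 65 and 144 (2.64, SE 0.4, limma adjusted p = 0.00391), and Bmp2 from between 57 and 155 to between 238 and 844 (1.81, SE 0.236, limma adjusted p = 0.0029). Bmp10 (2.63), Bmp5 (2.47, limma adjusted p = 0.00868, and 0.0532 without both replicate 1 high-fat libraries), the secreted protein gene Fstl1 (2.02) and Gdf10 (1.96) rose too. Bmp10 (0 to 9), Fstl1 (1 to 16) and Gdf10 (3 to 12) were near the floor in some low-fat libraries, and with a pseudocount of 10 their log2 fold changes were 1.68, 1.32 and 1.32.

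**Figure D5:**
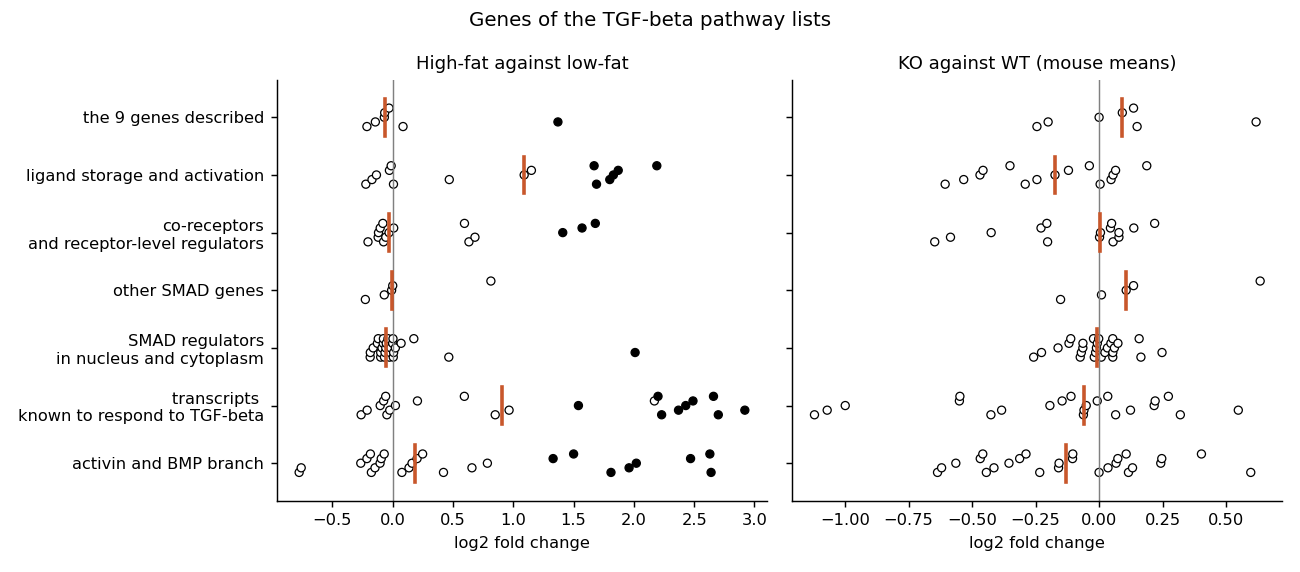
Log2 fold change (limma) of each tested gene of the 9 genes described and of the 6 pathway lists, in high-fat against low-fat libraries averaged over genotypes (left) and in KO against WT over mouse means (right), with filled points where the adjusted p is under 0.05 and orange bars at list medians. Filled points appear only on the left, up to 2.92 (Col3a1), and the genes around the receptors and SMADs mostly lie near 0.

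In KO against WT over mouse means, 0 genes of the 6 lists were called, and 5 named by an unadjusted limma p under 0.05 are given as values (limma adjusted p = 0.999 each). Of all genes tested, 2.19% had such an unadjusted p. The log2 fold change was -0.53 for Ltbp4, -1.07 for Igfbp3 (-0.48 without both replicate 1 mice), -0.62 for Bmp2, -0.41 for Bmp6 (an iron-regulated BMP ligand) and 0.25 for Ctdsp2 (a phosphatase that acts on SMADs). Over the 15 alternatives these values ran from -0.738 to -0.192 for Ltbp4 and from -1.44 to -0.48 for Igfbp3. They ran from -0.776 to -0.366 for Bmp2, -0.481 to -0.349 for Bmp6 and 0.154 to 0.298 for Ctdsp2. List medians ran from -0.17 for ligand storage to 0.11 for the other SMAD genes. Sinusoidal endothelial markers had a median of -0.57 in the same comparison, with 0 of 10 called and 6 at an unadjusted limma p under 0.05 (2.19% of all genes). Their sums were 2511 to 2655 in WT and 1093 to 2183 in KO low-fat libraries. In high-fat libraries the sums overlapped, at 5484 to 14127 in WT and 4404 to 8995 in KO. The part of endothelial cells in these values was not tested. The interaction of genotype and fat fraction called 0 of 16563 genes, so no gene of the 9 or of the lists was called for a fraction effect that depends on genotype.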

How the data were processed

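RNA sequencing values of 12 libraries from 6 mice were taken from the table the authors deposited, which holds 52636 genes with Ensembl identifiers. Its values are a score: the authors scaled read counts to 20 M (mega) per library and rounded up to whole numbers, as read from the values, since each column sums to between 20005960 and 20013668. The submitters' processing notes name the build mm9, and the aligner, counter, annotation and strandedness are not given in the sources used here. Gene positions and lengths are from GENCODE M21 on GRCm38, where 52403 identifiers matched. Depth, estimated from the steps left by scaling, was 15.1 to 25.02 M reads.

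The 16563 genes that reached 10 reads per 20 M in 3 or more libraries were rescaled by the trimmed mean of M values, transformed as log2(value + 2) and fitted with limma 3.58.1 in R 4.3.3 (group means over 12 libraries, moderated variances with an intensity trend, two-sided tests, Benjamini-Hochberg over all genes tested). For KO against WT over mouse means, the fractions of a mouse were averaged first. Fold changes on this scale understate the change of low genes. There were 7 comparisons. Fits without a block were also run on simulated libraries, drawn with no effect shared by the libraries of a mouse. That run cannot show how the fits behave on libraries paired by mouse.

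The labels give the low-fat and high-fat library of a number the same mouse name, so the mouse was a block in an alternative fit. Deviations of same-mouse libraries from group means correlated across genes at a mean r of 0.516 (WT) and 0.165 (KO). Same-numbered WT and KO libraries are different mice, with a mean r of 0.314 in low-fat libraries (0.251 to 0.396) and 0.233 in high-fat libraries (-0.171 to 0.49). Replicates of a group are different mice by their labels. The main fits over 12 libraries took the 2 libraries of a mouse as separate, so their p-values measure spread between libraries within groups and ignore the pairing. Between fractions, p-values with the mouse as a block measure how the difference between fractions varied between mice. For KO against WT over mouse means, p-values measure spread between mice.

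The 9 genes, the pathway and marker lists and the tests were chosen with earlier results of these data known. Named beside the 9 genes and Ptprk are, of each list, up to 6 genes called between fractions (largest change, with or without the block), up to 3 with an unadjusted p under 0.05 between genotypes, and the genes most alike over libraries. Some others were named after their values were seen. Ctgf and Hfe2 stand under these older symbols in the table. Alternatives were pseudocounts of 0.5 and 10, no filter, other scalings, the block, the libraries in the fit, no intensity trend and leaving out each library or mouse. Scaling factors from all genes and fits without both replicate 1 high-fat libraries (or mice) were added after seeing the data. Promoter windows are from RefSeq. The levels of 1 gene of the lists are not reported here, and it was left out of the comparison of list genes with Smad7.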

Additional observations from a re-analysis of the deposited data

How the results depend on the processing

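Over 48 single-gene results and 915 alternative fits, 871 kept direction and side of the threshold, 31 reversed, 2 gained and 11 lost a call, and the cause was not tested. Between fractions, leaving out one library gave log2 fold changes of -0.108 to 0.0575 for Tgfbr2, -0.123 to 0.0102 for Smad2 and -0.193 to 0.453 for Smad7. The deposited scaling alone gave 0.0237 for Tgfbr2, and leaving out both replicate 1 high-fat libraries gave 0.0264 for Smad2. Between genotypes, leaving out one mouse gave -0.515 to 0.105 for Tgfb1, -0.0416 to 0.0657 for Tgfbr1 and -0.369 to 0.736 for Smad7. For Tgfbr1, no filter and scaling factors from all genes each gave 0.0121, and leaving out both replicate 1 mice gave 0.0446. For the interaction, leaving out one library gave -0.16 to 0.712 for Tgfb1 and -0.265 to 0.0645 for Tgif1, and leaving out both replicate 1 high-fat libraries gave 0.0134 for Tgif1. The Tgfb1 call between fractions was lost without the intensity trend (limma adjusted p = 0.0558).

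Counts of genes called also moved. Averaged over genotypes, 956 genes were called between fractions, 1819 with the mouse as a replicate block, 604 to 1103 leaving out one library and 462 leaving out both replicate 1 high-fat libraries. In KO, 139 were called, 282 with the replicate block, 29 with no intensity trend, 0 in a fit of only the libraries compared, 0 to 37 leaving out one library, and 0 leaving out both replicate 1 high-fat libraries (1404 at an unadjusted limma p under 0.05). In WT, limma called 0 genes (1847 at an unadjusted p under 0.05) and 1 with a pseudocount of 10. KO against WT in high-fat libraries called 1 gene, 0 in a fit of only those libraries (234 at an unadjusted limma p under 0.05), and 0 to 1 leaving out one library. KO against WT over mouse means called 1 gene, Ptprk, and 0 with the replicate block, with no intensity trend, with scaling factors from all genes, leaving out both replicate 1 mice, and leaving out one mouse (245 to 738 at an unadjusted limma p under 0.05 in the last). The replicate block changed the call of none of the 9 genes.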

Other observations

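Other genes of the activin and BMP lists also differed between mice more than between groups, and they were chosen after their values were seen. Hamp encodes hepcidin, the iron hormone of hepatocytes and a known target of BMP signals. Its levels in low-fat and high-fat libraries were 3799 and 2829 reads per 20 M in WT mouse 1, and 1322 and 1260 in KO mouse 1. The other 4 mice lay between 5592 and 8611, so that mouse 1 of each genotype was the lowest in both fractions. Inhbe, which encodes the hepatocyte activin E subunit, was 2886 and 3093 in WT mouse 2 and between 792 and 1642 in every other library. Hamp had a Pearson's r of 0.419 and Inhbe of 0.457 with Smad7 over the 12 libraries, below the 0.966 of Id3.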
